A study of Mus musculus with 2 samples.

Results

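The mitochondrial carrier family genes were described in open-chromatin data from mouse erythroblasts, cells that still have a nucleus and give rise to red blood cells. Members were the protein-coding genes of GENCODE release M21 whose symbol begins with Slc25a, which gave 45 of 21938 protein-coding genes, and 2 family members counted among heme and iron genes were left out. The data were ATAC-seq peak lists, in which a transposase inserts adapters into accessible DNA and places with many insertions are called as peaks. The series held 1 group of 2 biological replicates, each made from 50000 primary erythroblasts of male C57BL/6J mice at 5 to 6 weeks of age, with no treatment or allele named. Both replicates carry 1 donor identifier in the labels, so their independence is not settled by the labels, which also do not name the tissue or the sort that yielded the cells. With 1 group there was no contrast to test, and all values below are descriptions. A promoter was called open when the list of each replicate, thresholded on the irreproducible discovery rate, had a peak no more than 1 kb from an annotated start site of the gene.

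Mitochondrial carriers are small proteins of the inner mitochondrial membrane that exchange nucleotides, phosphate, carboxylates, amino acids and cofactors between the cytosol and the matrix. They share a fold of 3 similar repeats and are grouped by what they carry. Erythroblasts make heme partly inside mitochondria, which takes up glycine, iron and energy there, and the cells discard their mitochondria when they mature to red cells.

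The thresholded lists held 17777 peaks in replicate 1 and 18837 in replicate 2. Without read counts in the lists, library depth is unknown. The label of the cells was checked against marker genes. All 10 erythroid markers, among them Gata1, Klf1 and Hbb-bs, had an open promoter, while 0 of 4 T cell, 0 of 4 B cell, 0 of 4 granulocyte and monocyte, 0 of 3 hepatocyte and 0 of 3 neuron markers did.

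Of the 45 carrier genes, 32 had an open promoter (71.1%, 95% Wilson interval 56.6% to 82.3%) and 13 did not. The same 32 genes were found in replicate 1 alone and in replicate 2 alone, so no carrier gene was open in 1 replicate and missing from the other. Over all protein-coding genes 9083 were open, a background of 41.4%. Of the 324 other genes with an Slc symbol, which encode transporters of other families, 109 were open (33.6%, 28.7% to 38.95%). Of 85 nuclear genes for subunits of oxidative phosphorylation, 77 were open (90.6%, 82.5% to 95.2%). The carrier family thus lay between the other transporters and the respiratory chain. The intervals cover counting error only, genes are not replicates, and the differences between these gene sets were not tested.

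**Figure D1:**
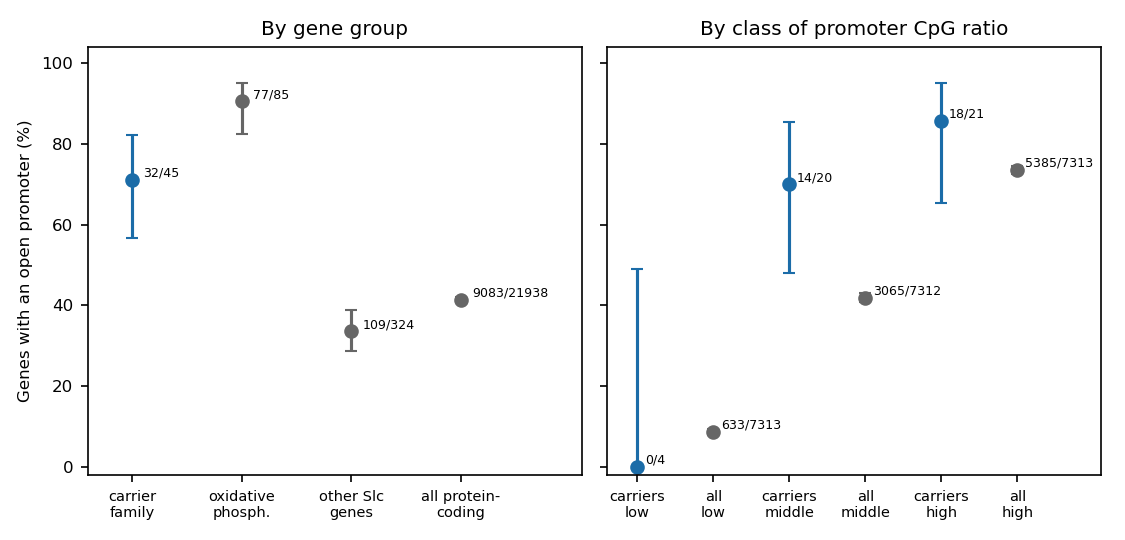
Share of genes with an open promoter in both replicates (percent, vertical axis), by gene group on the left and by class of promoter CpG ratio (3 classes of equal size over all protein-coding genes) on the right, with carrier genes in blue, other groups in gray, 95% Wilson intervals as bars and counts beside the points. The carrier family (32 of 45) sits between the other Slc genes (109 of 324) and the oxidative phosphorylation genes (77 of 85), and carriers of the high CpG class were open in 18 of 21 cases.

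The open and closed states are illustrated first by the ADP/ATP carriers, 3 close relatives that swap ADP for ATP across the inner membrane. In the mouse, Slc25a4 is the form best known from heart and muscle, Slc25a5 a form of many proliferating cells, and Slc25a31 a form of the testis. The 120 bp upstream of each gene's 5′ end are shown because the 3 genes encode the same activity and differed in the call. Sequences are from GRCm38 (mm10), each on its gene's strand, and capitals mark CG dinucleotides, of which Slc25a5 has 12, Slc25a4 has 4 and Slc25a31 has 11.
Slc25a5, chrX:36795531-36795650, plus strand: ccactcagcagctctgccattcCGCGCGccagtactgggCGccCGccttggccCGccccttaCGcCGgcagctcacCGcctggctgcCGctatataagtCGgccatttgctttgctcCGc
Slc25a4, chr8:46211285-46211404, minus strand: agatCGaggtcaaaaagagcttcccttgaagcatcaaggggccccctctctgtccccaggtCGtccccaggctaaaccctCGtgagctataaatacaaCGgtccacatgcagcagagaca
Slc25a31, chr3:40708735-40708854, plus strand: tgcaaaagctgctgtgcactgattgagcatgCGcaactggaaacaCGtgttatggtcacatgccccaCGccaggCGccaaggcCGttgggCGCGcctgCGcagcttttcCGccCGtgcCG

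Slc25a5 (ENSMUSG00000016319.3, chrX:36795651-36798807) had one of the strongest carrier promoters. The enrichment of its strongest summit, the deposited value taken as fold over background, was 14.03 in replicate 1 and 15.05 in replicate 2. The mean was 14.5 ± 0.718 (SD, n = 2). The summit lay 90 bp upstream of a start site in replicate 1 and 82 bp upstream in replicate 2, inside the sequence printed above. Slc25a4 (chr8:46206797-46211284) and Slc25a31 (chr3:40708855-40726096) had no peak within 1 kb of a start site in any list used, the less strict lists of each replicate included. The CG count did not separate them, since the closed Slc25a31 had nearly as many as the open Slc25a5. Over a wider window of 500 bp on either side of the 5′ end, the ratio of observed to expected CpG was 0.603 at Slc25a5, 0.715 at Slc25a4 and 0.753 at Slc25a31. Slc25a3, which brings phosphate into the matrix for ATP synthesis and completes this group, was open with an enrichment of 13.1 and 12.4 (mean 12.7 ± 0.494, SD, n = 2). A weaker second peak, with enrichments of 5.38 and 5.25, lay 715 bp and 724 bp downstream of the Slc25a3 5′ end.

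The carriers of cofactors and nucleotides were open in all 9 cases, the largest role group without a closed member. Slc25a17, a carrier of the peroxisomal membrane for coenzyme A and related cofactors, had the highest promoter enrichment of all carrier genes. Its values were 14.2 and 15.2 (mean 14.7 ± 0.676, SD, n = 2), and it ranked at percentile 95.2 of all open protein-coding genes. Slc25a32, which carries folate or FAD, had 13.4 and 11.9. Slc25a16 and Slc25a42 are both linked to coenzyme A. Slc25a16 had 11.4 and 12.2, above the values of 8.38 and 8.10 at Slc25a42. Slc25a36 and Slc25a33, carriers of pyrimidine nucleotides, had values from 11.1 to 11.99 over both replicates. Slc25a26, which brings S-adenosylmethionine into the matrix, had 8.06 and 9.34. Slc25a51, the carrier of NAD+, was the weakest of the group with 6.31 and 5.81. Its summit lay 736 bp and 739 bp upstream of the nearest start site, where the median over the family was 61.0 bp.

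The group for carnitine, iron and glutathione was open in all 4 cases. Slc25a20, which carries acylcarnitines for fatty acid oxidation, was the strongest, with 13.8 and 12.9 (mean 13.3 ± 0.639, SD, n = 2). Slc25a28, the iron carrier also named mitoferrin 2, had 9.95 and 9.91 (mean 9.93 ± 0.0304, SD, n = 2). This placed Slc25a28 (chr19:43663801-43674881) at percentile 51.7 of all open protein-coding genes, near the middle. Its peak was 1247 bp wide in replicate 1 and 1255 bp in replicate 2, wider than the family median of 932 bp and 928 bp. The glutathione carriers Slc25a40 and Slc25a39 had 9.55 and 9.57 and, for Slc25a39, 6.44 and 6.26. The stronger Slc25a39 peak lay upstream, with its summit 715 bp and 708 bp before the 5′ end, and a second peak with enrichments of 4.10 and 3.62 lay 390 bp and 414 bp inside the gene.

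All 4 carriers of di- and tricarboxylates were open, and all 4 had weak promoter peaks. Slc25a10, the dicarboxylate carrier, had 6.70 and 7.62. Slc25a21, the oxodicarboxylate carrier, had 6.25 and 6.27. Slc25a1, which exports citrate to the cytosol, had 5.60 and 6.65. Slc25a11, the oxoglutarate and malate exchanger, had 6.20 and 5.60. Their means ran from 5.90 to 7.16, at percentiles of 17.6 or lower among all open protein-coding genes (17.6 for Slc25a10 and 7.15 for Slc25a11). The median over open carriers was 10.8, so each of the 4 lay below it in both replicates.

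**Figure D2:**
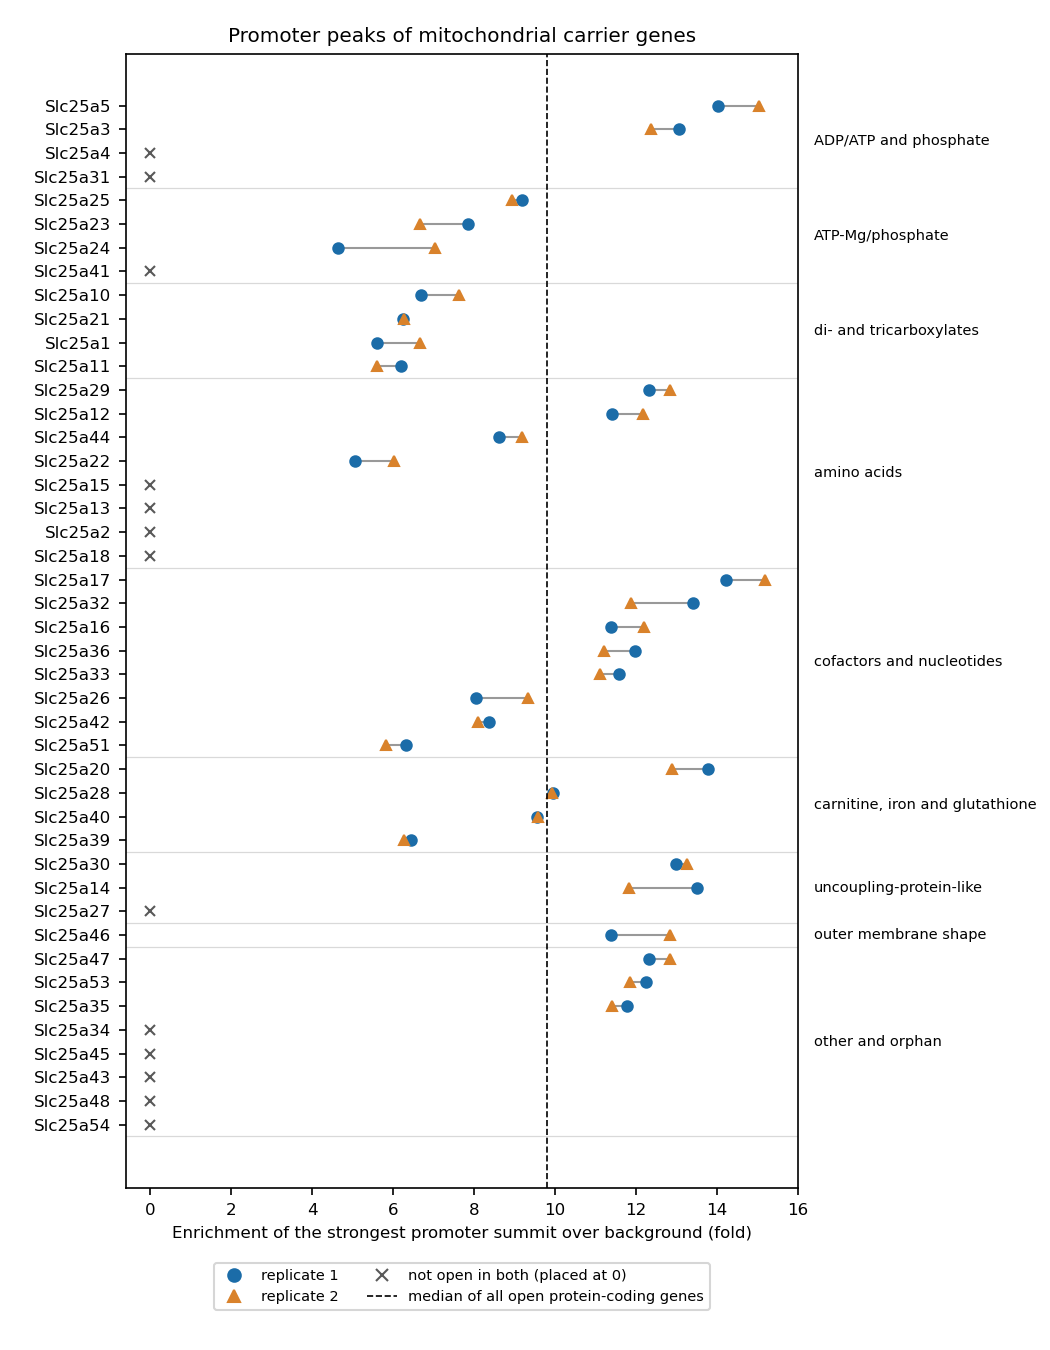
Deposited enrichment over background (fold, horizontal axis) of the strongest promoter summit of each carrier gene but 1 open member in replicate 1 (circle) and replicate 2 (triangle), joined by a line and grouped by role, with crosses at 0 for genes not open. The 4 di- and tricarboxylate carriers sit between 5.60 and 7.62, left of the dashed median of all open protein-coding genes at 9.8, while Slc25a17 and Slc25a5 reach 15.2 and 15.05.

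Amino acid carriers were split, with 4 of 8 open. Slc25a29, a carrier of basic amino acids, was the strongest with 12.3 and 12.8 (mean 12.6 ± 0.369, SD, n = 2). Slc25a12, an aspartate and glutamate carrier of the malate-aspartate shuttle, had 11.4 and 12.2, while its relative Slc25a13 was not open. Slc25a44, linked to branched-chain amino acids, had 8.63 and 9.19. Slc25a22, a glutamate carrier, was the weakest open member of the whole family with 5.05 and 6.03 (mean 5.54 ± 0.694, SD, n = 2), and its relative Slc25a18 was not open. The stronger Slc25a22 peak lay at an internal start site, 2539 bp and 2534 bp inside the gene, and the peak at the 5′ end had enrichments of 4.84 and 4.80. The ornithine carriers Slc25a15 and Slc25a2 were both closed under the call.

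Of the 4 carriers that exchange ATP-Mg for phosphate, the 3 that bind calcium were open. Slc25a25 had 9.17 and 8.95, and Slc25a23 had 7.85 and 6.67. Slc25a24 had 4.63 and 7.04 (mean 5.83 ± 1.71, SD, n = 2), the largest spread between replicates in the family. Its peaks did not overlap between the replicates, with the summit 758 bp inside the gene in replicate 1 and 138 bp upstream of the 5′ end in replicate 2, so its open call rests on different sites. In the less strict list of replicate 1 its strongest promoter summit had 6.72, close to the 7.04 of replicate 2. Slc25a41, the relative that lacks the calcium-binding part, was not open.

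Among the uncoupling-protein-like carriers, Slc25a30 had 12.99 and 13.3 (mean 13.1 ± 0.195, SD, n = 2). Slc25a14 had 13.5 and 11.8 (mean 12.7 ± 1.196, SD, n = 2), and Slc25a27 was not open. Slc25a46, a family member of the outer membrane that takes part in the shape and fission of mitochondria, had 11.4 and 12.8. Of 8 other and orphan members, Slc25a47, Slc25a53 and Slc25a35 were open, with means from 11.6 to 12.6. Slc25a47 starts 163 bp from Slc25a29 on the opposite strand, and both genes were called from 1 shared peak. The 32 open genes therefore stood for 31 distinct peaks in replicate 1.

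Across the 32 open carriers the mean enrichment ran from 5.54 to 14.7 with a median of 10.8. The median was 9.8 over all open protein-coding genes, 11.4 over open oxidative phosphorylation genes and 9.39 over open genes of other Slc families. Of the 32, 18 lay above the median of all open genes, 2 above its 90th percentile and 5 below its 10th. The ratio of replicate 2 to replicate 1 had a median of 0.999 and ran from 0.85 to 1.52, with replicate 2 higher in 16 of 32. The median SD between the replicates was 0.46, small beside the range over genes. The enrichment comes from 2 separately made lists, so it ranks genes within a list and is no measure of transcription.

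The open call requires a peak within 1 kb of a start site, so closeness to a start site is partly set by it. Distances and sides over all open genes are not given here, so those below are not read as a trait of carriers. The strongest summit of replicate 1 lay a median of 61.0 bp from the nearest start site and at most 783 bp away, at Slc25a23. It lay within 250 bp for 25 of the 32 genes, and upstream of the start for 27. All 32 also had a peak within 1 kb of the outermost 5′ end. In 7 of the 32 the peak also lay within 1 kb of another protein-coding gene's start, which was Rnf167 for Slc25a11, Naif1 for Slc25a25, Dcaf13 for Slc25a32, Dbf4 for Slc25a40, B930094E09Rik for Slc25a46, and each other for Slc25a29 and Slc25a47. In these 7 the open site cannot be assigned to the carrier gene rather than to its neighbor. The share of such peaks over all open genes is not given here, so the count is not read as a trait of carriers.

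The 13 closed members fell into steps. Slc25a2, Slc25a4, Slc25a18, Slc25a31, Slc25a34, Slc25a41, Slc25a43, Slc25a48 and Slc25a54 had no promoter peak in any list used, 9 genes in all. Slc25a15, which carries ornithine for the urea cycle, came nearest to the call. Each replicate's less strict list held it, with enrichments of 4.28 and 4.84, and in lists made from both replicates with 4.91. Slc25a45 was in the less strict list of replicate 2 with 3.08 and in 3 lists made from both replicates with 3.24. Slc25a27 was in the less strict list of replicate 1 with 3.24. Slc25a13 appeared in 1 list made from both replicates, with 3.05. A promoter outside a list was below that list's threshold, which at unknown depth is not the same as closed chromatin.

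The call was also compared within 10 pairs or small sets of close relatives. In 6 sets some members were open and others not, in 3 sets all were open (Slc25a14 with Slc25a30, Slc25a33 with Slc25a36, Slc25a39 with Slc25a40), and in 1 set, Slc25a2 with Slc25a15, none was. The mixed sets were the ADP/ATP carriers, Slc25a12 and Slc25a13, Slc25a18 and Slc25a22, the ATP-Mg carriers, Slc25a34 and Slc25a35, and Slc25a47 and Slc25a48. In 5 of the 6 mixed sets 1 member alone was open, and in the ATP-Mg set 3 of 4 were. Sets of relatives in other families were not counted, so the number of mixed sets is not read as a trait of carriers. The open calls of Slc25a25, Slc25a40 and Slc25a47 in these sets rest on peaks shared with a neighboring gene.

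Open carriers had a higher median CpG ratio at their promoters than closed ones, a difference that was not tested. The median ratio of observed to expected CpG within 500 bp of the 5′ end was 0.746 for the 32 open genes, 0.487 for the 13 others and 0.552 for all protein-coding genes. The ranges overlapped, from 0.457 to 1.08 for open and from 0.207 to 0.753 for closed carriers. When all protein-coding genes were cut into 3 classes of equal size by this ratio, carriers were open in 0 of 4 cases in the low class, 14 of 20 in the middle class (70.0%, 48.1% to 85.5%) and 18 of 21 in the high class (85.7%, 65.4% to 95.02%). All protein-coding genes were open in 8.66%, 41.9% and 73.6% of cases. The oxidative phosphorylation genes reached 30 of 34 in the middle and 44 of 44 in the high class, and other Slc genes 45 of 142 and 55 of 90. Base composition thus accompanies the call, and whether it accounts for the position of the family was not tested. The closed genes of the high class were Slc25a4, Slc25a15 and Slc25a31, and those of the low class Slc25a18, Slc25a34, Slc25a41 and Slc25a45.

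**Figure D3:**
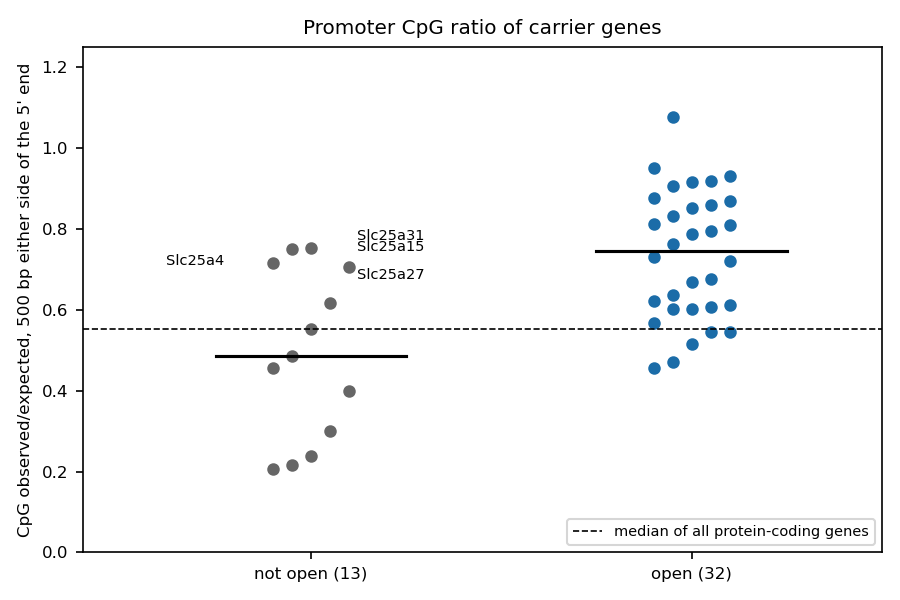
Ratio of observed to expected CpG within 500 bp of the 5′ end (vertical axis) for the 13 carrier genes not open and the 32 open ones, each gene a point spread sideways for legibility, with the group median as a bar. The medians are 0.487 and 0.746, and Slc25a4, Slc25a15, Slc25a27 and Slc25a31 are closed genes above a ratio of 0.7.

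Short sequence motifs were counted in windows of 151 bp centered on the strongest promoter summit, on both strands. The letters searched were AGATAA for GATA factors, CCNCNCCC for KLF factors, GGGGCGGGG for SP factors, CGCATGCG for NRF1, CCGGAAGT for ETS factors, AAGATGGCG for YY1, TGACGTCA for CREB, CCAAT for NF-Y, CACGTG for the E-box, TGAGTCA for NF-E2 and TCAAGGTCA for ERR. A match is a description of the letters and does not show binding. The KLF and SP letters overlap, and all 4 carrier windows of replicate 1 with an SP match also had a KLF match.

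In these windows the CCAAT letters were the most frequent at carrier promoters in replicate 1 and tied with the KLF letters in replicate 2. In windows of 301 bp the KLF letters were more frequent, at 71.0% and 74.2% against 61.3% and 58.1%. In 151 bp, CCAAT letters were in 17 of 31 distinct windows in replicate 1 (54.8%) and in 16 in replicate 2 (51.6%). All open promoters had 34.5% and 34.7%. CACGTG was in 6 of 31 windows in each replicate (19.4%, against 7.4% and 7.23%), those of Slc25a26, Slc25a32, Slc25a33, Slc25a36, Slc25a39 and Slc25a46. KLF letters were in 14 windows of replicate 1 (45.2%) and 16 of replicate 2 (51.6%), against 55.7% and 55.6%. GATA letters, here AGATAA alone, were in 2 and 3 windows (6.45% and 9.68%) against a background of 3.59% and 3.64%. Other forms of the motif of erythroid GATA1 were not searched. The 2 genes with a GATA match in both replicates were Slc25a22 and Slc25a51, and Slc25a23 had one in replicate 2. NRF1, YY1 and ERR letters were in 0 of 31 windows in either replicate, where all open promoters held them in 3.54%, 2.93% and 0.126% of windows in replicate 1. These shares rest on few windows and were not tested.

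**Figure D4:**
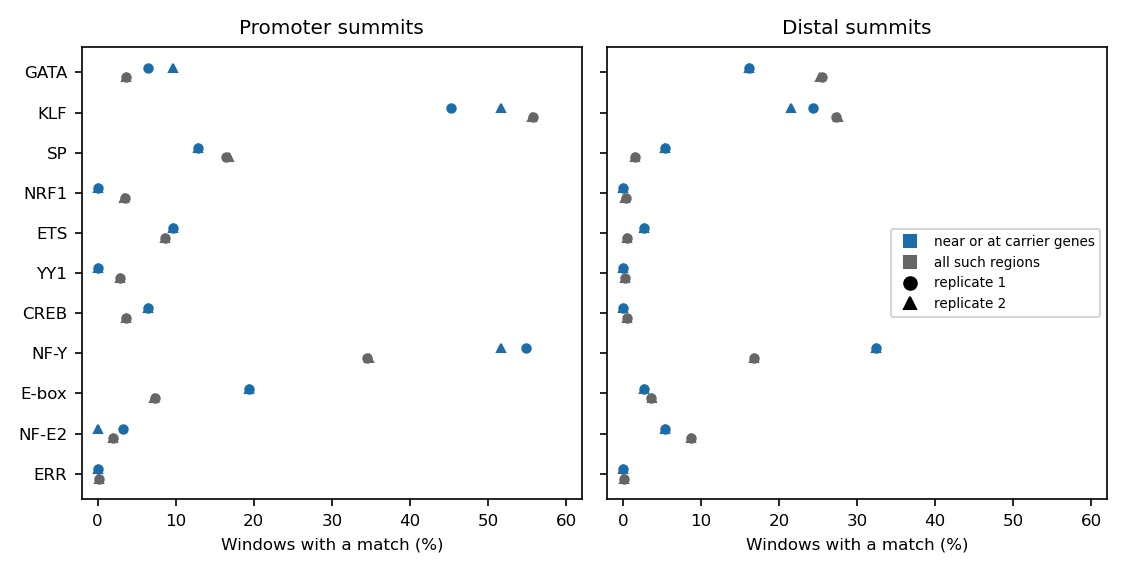
Share of 151 bp summit windows with a match to each motif (percent, horizontal axis) at open promoters (left) and distal regions (right), for carrier genes in blue and all such regions in gray, with replicate 1 as circles and replicate 2 as triangles. CCAAT (NF-Y) at carrier promoters lies at 54.8% and 51.6%, right of the gray points at 34.5% and 34.7%.

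CCAAT letters are shown in 5 open carrier promoters, chosen only among those with a match, to include strong genes and repeated matches. Each sequence is the 120 bp upstream of the 5′ end on the gene's strand in GRCm38 (mm10), and capitals mark CCAAT or its reverse complement ATTGG. Slc25a17 and Slc25a30 have 1 match, Slc25a29 has 2, Slc25a35 has 3 and Slc25a42 has 4. Slc25a5, Slc25a20, Slc25a3 and Slc25a14, also among the strongest carrier promoters, have no match in this upstream window. They also have none in the summit window of either replicate. The printed set therefore does not show that CCAAT letters mark the strongest carriers.
Slc25a17, chr15:81360813-81360932, minus strand: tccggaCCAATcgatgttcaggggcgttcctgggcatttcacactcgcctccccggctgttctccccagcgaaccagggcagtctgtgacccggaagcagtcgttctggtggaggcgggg
Slc25a30, chr14:75787038-75787157, minus strand: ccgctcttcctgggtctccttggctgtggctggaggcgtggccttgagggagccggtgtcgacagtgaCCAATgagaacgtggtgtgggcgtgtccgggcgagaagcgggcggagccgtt
Slc25a29, chr12:108835884-108836003, minus strand: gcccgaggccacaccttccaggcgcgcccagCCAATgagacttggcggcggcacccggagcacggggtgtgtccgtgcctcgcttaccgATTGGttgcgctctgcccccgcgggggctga
Slc25a35, chr11:68968011-68968130, plus strand: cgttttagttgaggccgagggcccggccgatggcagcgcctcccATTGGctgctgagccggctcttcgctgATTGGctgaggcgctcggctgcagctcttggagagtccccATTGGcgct
Slc25a42, chr8:70212306-70212425, minus strand: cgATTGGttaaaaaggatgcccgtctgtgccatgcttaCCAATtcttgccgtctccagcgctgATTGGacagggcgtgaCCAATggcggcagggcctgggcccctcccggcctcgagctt

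In this upstream window 12 of 31 open carriers had a CCAAT match (38.7%) and 3 of 12 closed ones did, with 2 genes not analysed here. The closed ones were Slc25a13, Slc25a27 and Slc25a34. The share was 27.7% over all open and 23.5% over all protein-coding genes. The windows of Slc25a29 and Slc25a47 overlap, and the only Slc25a47 match is also a Slc25a29 match, so the same site counts for both genes. At Slc25a42 these upstream matches lay apart from the strongest summit, which was 450 bp and 457 bp upstream of the start site. The 151 bp window at that summit also held CCAAT letters in both replicates.

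Distal open regions, which lay over 1 kb from any start site of any gene and held a peak of each replicate, were counted within 50 kb of the 5′ end. Of the 45 carriers 24 had at least 1 (53.3%, 39.1% to 67.1%), against a background of 30.0% of all protein-coding genes, 37.0% of other Slc genes and 45.9% of oxidative phosphorylation genes. With the stronger 50% of each list the share was 15.6% of carriers and 14.4% of all protein-coding genes. In the full lists the mean was 0.889 regions per carrier and 0.576 per protein-coding gene. Among open genes the means were 1.09 for carriers and 0.925 for all protein-coding genes, and among genes not open 0.385 and 0.329. The gap to the background was thus smaller when genes of the same promoter state were compared. The carriers had 40 pairs of gene and region, formed by 37 distinct regions out of 6105 distal regions in the series. Of the 37, 18 lay in introns, 15 between genes and 4 in exons. A region within 50 kb is near a gene and is not shown to act on it.

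The carriers with most distal regions were Slc25a30 with 4, and Slc25a21, Slc25a35, Slc25a42 and Slc25a44 with 3 each. These 5 genes are 11.1% of the carriers, and 7.05% of all protein-coding genes had as many. At Slc25a30 (chr14:75760117-75787037, minus strand) an exonic region 25.81 kb downstream of the 5′ end had enrichments of 9.14 and 11.3, and a region in an intron 18.86 kb downstream had 9.01 and 8.60. A region 42.22 kb upstream had 8.74 and 8.24 and held GATA, KLF and SP letters, and one in an intron of Cog3 had 5.05 and 4.57. At Slc25a21 (chr12:56712634-57197472), 2 regions lay in its own introns and 1 lay 14.26 kb upstream, with means from 5.99 to 7.74. At Slc25a35 the strongest region, 28.28 kb upstream, had 10.8 and 11.2. At Slc25a42 an intronic region 10.72 kb downstream of the 5′ end had 8.65 and 7.98. At Slc25a44 a region 42.20 kb upstream had 9.64 and 9.40, and 2 regions inside the gene, at 3.02 kb and 13.29 kb, both held GATA letters.

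**Figure D5:**
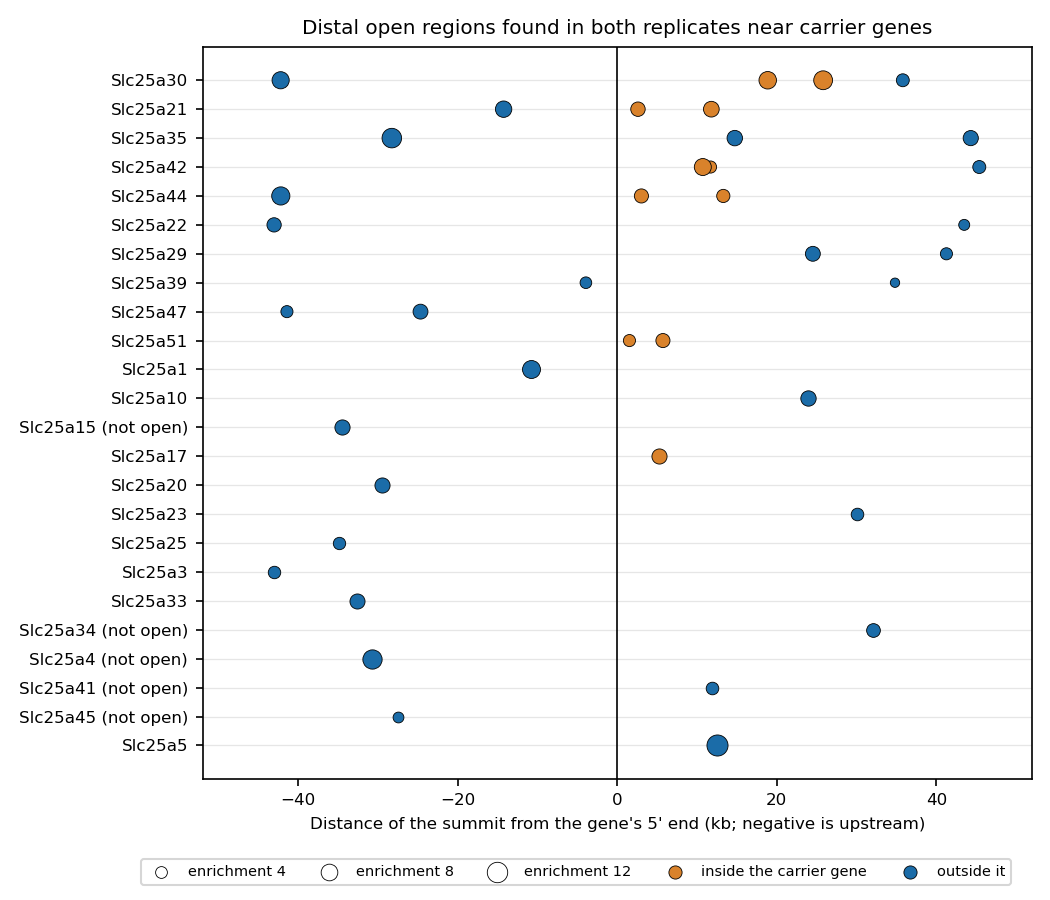
Distance of each distal region's summit from the gene's 5′ end (kb, negative upstream, horizontal axis) for the 24 carrier genes with at least 1 region within 50 kb, with the point area rising with mean enrichment and regions inside the gene in orange. Slc25a30 has 4 regions, and the largest point is the region 12.46 kb downstream of the Slc25a5 5′ end.

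The strongest distal region near a carrier belonged to the neighborhood of Slc25a5. It lay 12.46 kb downstream of the 5′ end, between genes, with enrichments of 12.3 and 13.3 (mean 12.8 ± 0.668, SD, n = 2), against 14.5 at the Slc25a5 promoter. The closed Slc25a4 had a region of 11.2 and 10.2 (mean 10.7 ± 0.762, SD, n = 2) 30.81 kb upstream. Closed carriers with a distal region numbered 5, namely Slc25a4, Slc25a15, Slc25a34, Slc25a41 and Slc25a45. Over the 37 distinct regions near carriers the median enrichment was 6.39, against 7.27 over all distal regions of the series. Shared regions were 3: a pair in introns of Yy1 near both Slc25a29 and Slc25a47, and 1 in an intron of Khsrp near both Slc25a23 and Slc25a41. Of the 37 regions 11 lay inside a carrier gene, in 6 genes.

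GATA letters were in 6 of the 37 distal windows in each replicate (16.2%), against 25.5% and 25.3% of all distal regions. CCAAT letters were in 12 (32.4%), against 16.8%. In windows of 301 bp of replicate 1 the GATA shares were 27.0% and 32.6%, and the CCAAT shares 40.5% and 30.6%, so both gaps were narrower in wider windows. The 3 windows printed here are among the distal regions of open carriers that held GATA letters outside annotated exons. Those 43.5 kb downstream of the Slc25a22 5′ end (enrichments 3.57 and 3.40) and 34.89 kb upstream of Slc25a25 (4.18 and 4.65) also qualified and are not printed. They are 151 bp of GRCm38 (mm10) on the plus strand centered on the summit of replicate 1, with AGATAA or its reverse complement TTATCT in capitals and, at Slc25a44, the E-box CACGTG also in capitals. The Slc25a44 window lies in its own intron 3.02 kb from the 5′ end, that of Slc25a30 between genes 42.22 kb upstream, and that of Slc25a20 in an intron of Arih2 29.52 kb upstream.
Slc25a44 region, chr3:88422046-88422196, plus strand: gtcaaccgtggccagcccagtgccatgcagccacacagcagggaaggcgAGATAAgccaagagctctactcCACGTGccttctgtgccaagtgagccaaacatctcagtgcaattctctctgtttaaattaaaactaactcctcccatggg
Slc25a30 region, chr14:75829186-75829336, plus strand: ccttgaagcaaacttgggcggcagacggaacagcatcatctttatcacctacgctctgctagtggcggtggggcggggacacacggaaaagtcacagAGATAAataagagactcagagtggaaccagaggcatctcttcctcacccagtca
Slc25a20 region, chr9:108632488-108632638, plus strand: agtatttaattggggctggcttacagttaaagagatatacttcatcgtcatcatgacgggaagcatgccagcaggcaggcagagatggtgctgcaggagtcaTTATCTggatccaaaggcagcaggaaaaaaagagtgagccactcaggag

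The printed regions had moderate enrichment, higher than that of the Slc25a22 and Slc25a25 regions left out. The Slc25a44 region had 5.82 and 5.64 (mean 5.73 ± 0.129, SD, n = 2), the Slc25a30 region 8.74 and 8.24 (mean 8.49 ± 0.354, SD, n = 2), and the Slc25a20 region 7.12 and 6.08 (mean 6.60 ± 0.734, SD, n = 2).

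A mixed list of genes related to the carriers was read by the same call. It held family members with other symbols, other transporters and channels, import genes and regulators. Of its 32 genes, 26 were open (81.2%, 64.7% to 91.1%). The background over all protein-coding genes was 41.4%, and the difference was not tested. Of family members with other symbols 3 of 5 were open. These were Mtch1 (mean 13.3), Mtch2 (9.38) and Ucp2 (5.33), while Ucp1, the uncoupler of brown fat, and Ucp3 were not. Both subunits of the mitochondrial pyruvate carrier, Mpc1 and Mpc2, were open, as were all 3 outer membrane channels, Vdac1, Vdac2 and Vdac3. Of the sideroflexins 4 of 5 were open, led by Sfxn4 with a mean of 13.5, and Sfxn5 was in the thresholded list of replicate 2 alone with 6.61. Of 10 genes for the import of carrier proteins 9 were open. Tomm70a, the receptor that binds newly made carriers at the outer membrane, had the highest mean of the list at 14.6. Timm8a1 was in the thresholded list of replicate 2 alone with 7.27. Of 7 regulators of mitochondrial genes, Nrf1, Gabpa, Tfam, Esrra and Yy1 were open, with Tfam highest at 12.7, and the coactivators Ppargc1a and Ppargc1b were not. The less strict lists of both replicates held Sfxn5, Timm8a1 and Ppargc1b.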

How the data were processed

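ATAC-seq was measured in 2 replicates of 1 group of erythroblasts, grouped by the labels' cell type. For replicate 2 the label names 2 instrument models, for replicate 1 it names none, and an instrument effect and the replicate cannot be told apart. Coordinates are mm10, per the labels. Aligner, peak caller and settings were not given in the sources used here. Deposited lists give for each summit an enrichment, a deposited −log10 p-value and a deposited whole-number score. Of these, the enrichment was used, as the authors' own value of each summit. It was taken as the caller's fold over background from its column's place in the list format, because the caller is not stated. No list holds read counts, so depth is unknown and limits precision.

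Distinct intervals were taken as peaks, with the strongest summit giving place and fold. Each replicate's thresholded list gave the main call. The pseudoreplicated list of each replicate, which is less strict, and 4 lists made from both replicates served for genes that were not open. Start sites came from GENCODE M21 and sequence from GRCm38.p6, whose chromosome lengths contained all peaks. Regions of both replicates were merged intervals with an overlap of at least 1 bp. Wilson intervals are at 95%. Python 3.11.15, pandas 2.3.3, scipy 1.17.1 and pysam 0.24.0 were used, and the code was checked on simulated data.

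The members and lists were chosen with earlier results of these data known. Genes given in full were the 6 open members of highest and the 3 of lowest mean enrichment, those open in 1 replicate (none), the 5 with most distal regions, Slc25a28, the ADP/ATP carriers and the highest member of each role group. The remaining members are given by their enrichment or by the list that holds them, except 1 open member, whose own values are not reported here. Alternatives were promoter windows, lists, stronger peaks, distances, overlap, start sites, shared peaks, window sizes and each replicate left out.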

Additional observations from a re-analysis of the deposited data

How the results depend on the processing

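The count of 32 open carriers stood beside 41.4% of all protein-coding genes. It was 31 with promoter windows of 500 bp (without Slc25a24), beside 40.6% of all genes. With the less strict list of each replicate it was 33 (with Slc25a15), beside 46.6%. With the stronger 50% of each list it was 23, beside 30.0%, so the share over all genes fell too. Leaving out peaks shared with another gene gave 25. This was done for carriers only, so no share over all genes stands beside that count. The count was 32 with 2 kb windows (all genes 42.4%) and with the outermost 5′ end (38.4%). It was also 32 without replicate 1 (42.8%) and without replicate 2 (42.2%). The list made from both replicates that is thresholded but not named conservative gave 32 as well (45.3%). The conservative list made from both replicates, an alternative chosen after seeing the data, gave 34 (all genes 45.7%), with Slc25a15 and Slc25a45 added. Over these 10 alternatives 28 of 45 carriers kept their call. The 26 open genes of the mixed list of related genes were 29 with the less strict list of each replicate (all genes 46.6%). They were 28 with the thresholded list made from both replicates (45.3%) and 21 with the stronger 50% of each list (30.0%). The median enrichment of 10.8 was 11.3 with 500 bp windows, 10.3 with the less strict lists, and 10.7 to 10.8 without 1 replicate. The 40 pairs of carrier and distal region were 19 within 25 kb, 91 within 100 kb, 81 with the less strict lists, 9 with the stronger 50% of each list, and 47 to 53 without 1 replicate. The share of carriers with a region, beside that of all protein-coding genes, was 31.1% and 19.4% within 25 kb, 68.9% and 43.0% within 100 kb, 77.8% and 49.5% with the less strict lists, and 15.6% and 14.4% with the stronger 50%, where the gap of the main lists (53.3% and 30.0%) nearly closed. The share of promoter windows of replicate 1 with KLF letters was 71.0% in windows of 301 bp, where all open promoters had 70.5%, against 45.2% and 55.7% in 151 bp. CCAAT letters moved from 54.8% to 61.3% (all open promoters 34.5% to 42.9%), and CACGTG from 19.4% to 22.6% (7.4% to 11.4%). GATA letters in these promoter windows moved from 6.45% to 12.9% (all open promoters 3.59% to 6.17%), and in distal windows from 16.2% to 27.0% (all distal regions 25.5% to 32.6%). The cause was not tested for any of these. No paired analysis was possible because the series has 1 group. The number of distal regions depends on distance and threshold by its construction, and unknown depth limits what a missing peak shows.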
